A study of Mus musculus with 4 samples.

Results

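The genes of retinal ganglion cells described here are 10 rows of the deposited gene table, taken by symbol from 22095 loci: the transcription factors *Pou4f1*, *Pou4f2*, *Pou4f3* and *Isl2*, the markers *Rbpms*, *Sncg* and *Thy1*, and the neurofilament subunits *Nefl*, *Nefm* and *Nefh*. They were followed in 4 RNA-seq libraries of mouse retina at 3 weeks of age, 2 from *rd7* mice, which are *Nr2e3* mutants, and 2 from wild-type mice, with C57BL/6J given as the strain of both. Each library pooled 8 retinas from 2 females and 2 males, so replicate error here means the difference between separate pools of mice. The mutation is carried in every cell of the animal, and *Nr2e3* encodes a transcription factor of developing rods, which are not the cells described here. In whole retina, a change in the number of ganglion cells and a change in RNA per cell cannot be told apart. Setting *rd7* beside wild-type retinas asks how far the messages of the retina's output cells differ when the photoreceptors carry the mutation.

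Ganglion cells are the only retinal neurons whose axons leave the eye, through the optic nerve to the brain, and they make up a small minority of the cells of a mouse retina that is mostly rods. They are the first retinal neurons to be born. POU4F2 (also called BRN3B) acts with ISL1 to establish their fate, while POU4F1 (BRN3A) and POU4F3 (BRN3C) mark overlapping subsets of mature ganglion cells, and ISL2 marks another subset. Neurofilaments, assembled from light, medium and heavy subunits, fill their long axons and set axon calibre.

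RefSeq promoter sequences are given for 4 of the 10 genes, *Pou4f1*, *Isl2*, *Pou4f2* and *Sncg*. As described below, the first pair of genes had *rd7* values above both wild-type values and the second pair did not. The 250 bases before a start site of each gene are shown. They are written 5′ to 3′ on the strand of the gene in build GRCm38.p6, with E-boxes (CANNTG, bound by basic helix-loop-helix factors such as ATOH7), GC boxes (GGGCGG on either strand) and the cyclic AMP response element (TGACGTCA) in capitals. The last motif was added after the sequences had been read.
*Pou4f1*, chr14:104468000-104468249, minus strand: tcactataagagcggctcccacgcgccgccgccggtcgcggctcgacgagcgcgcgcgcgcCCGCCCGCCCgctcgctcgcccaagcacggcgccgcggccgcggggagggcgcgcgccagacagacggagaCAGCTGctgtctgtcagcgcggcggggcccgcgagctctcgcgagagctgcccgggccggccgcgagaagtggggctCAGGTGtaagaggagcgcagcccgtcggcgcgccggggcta
*Isl2*, chr9:55540899-55541148, plus strand: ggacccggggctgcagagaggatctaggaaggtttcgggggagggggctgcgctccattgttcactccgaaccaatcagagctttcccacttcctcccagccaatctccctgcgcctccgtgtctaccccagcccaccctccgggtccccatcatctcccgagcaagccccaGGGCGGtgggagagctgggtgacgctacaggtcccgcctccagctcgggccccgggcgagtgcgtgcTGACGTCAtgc
*Pou4f2*, chr8:78436648-78436897, minus strand: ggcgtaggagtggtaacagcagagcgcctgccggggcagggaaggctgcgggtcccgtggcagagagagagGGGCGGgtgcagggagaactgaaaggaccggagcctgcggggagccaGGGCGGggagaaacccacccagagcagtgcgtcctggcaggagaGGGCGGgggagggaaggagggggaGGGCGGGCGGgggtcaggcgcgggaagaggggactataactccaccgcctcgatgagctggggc
*Sncg*, chr14:34374670-34374919, minus strand: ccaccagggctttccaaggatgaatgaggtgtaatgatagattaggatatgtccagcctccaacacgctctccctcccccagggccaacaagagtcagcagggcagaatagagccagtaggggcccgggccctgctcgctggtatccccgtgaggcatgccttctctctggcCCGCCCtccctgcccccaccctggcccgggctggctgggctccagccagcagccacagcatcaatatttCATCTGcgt
All 4 windows are rich in G and C, at 78.0% for *Pou4f1*, 66.8% for *Isl2*, 70.8% for *Pou4f2* and 61.6% for *Sncg*, against a median of 52.4% over the 32851 RefSeq promoters of this length. *Pou4f1* holds 2 E-boxes and *Sncg* 1, and none is found in the windows of *Isl2* and *Pou4f2*; 66.2% of all promoters hold at least 1. GC boxes, which 32.7% of promoters hold, were found in all 4, with 5 in *Pou4f2* and 2 in *Pou4f1*, of which the last pair of *Pou4f2* and the pair of *Pou4f1* overlap. The cyclic AMP response element of *Isl2* is found in 1.55% of promoters. The homeodomain core TAAT, searched on both strands, occurs 2 times in *Sncg* and in 54.9% of promoters. The TATA box TATAAA, held by 12.4% of promoters, is in none of the 4.

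All 10 genes were expressed above the filter, a mean of 1 FPKM (reads of a gene scaled to transcript length and to the size of the library) over the 4 libraries, and all had estimates marked as successful by the authors' software. FPKM is a level per length, so genes can be set side by side. In wild-type retinas the order of mean levels was *Sncg* (229 FPKM), *Nefl* (174), *Thy1* (168), *Nefm* (89.4), *Nefh* (31.6), *Rbpms* (12.9), *Pou4f1* (7.26), *Pou4f2* (3.57), *Isl2* (3.21) and *Pou4f3* (2.38), and neighbours in this order did not overlap between libraries. In *rd7* retinas the values of *Sncg* and *Nefl* overlapped, as did those of *Pou4f2* and *Isl2*, and the order of means was the same. The 4 transcription factors lay between the 12.1th and 40.3th percentile of the 12655 genes tested, while *Sncg*, *Nefl* and *Thy1* lay above the 97th. From the lowest values of genes with a single coding transcript, each library was estimated to hold between 3.52e+07 and 3.57e+07 reads. The estimate rests on a median taken inside a fixed window, 0.02 to 0.036 FPKM times kb. The window bounds the result, so it is approximate and does not measure differences in depth between libraries. On this estimate 82 to 113 reads lay behind a value of *Pou4f3*, a counting error of at least 9.43%, and 20766 to 25642 reads behind a value of *Nefl*, a counting error of up to 0.694%. These errors cover counting only.

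**Figure D1:**
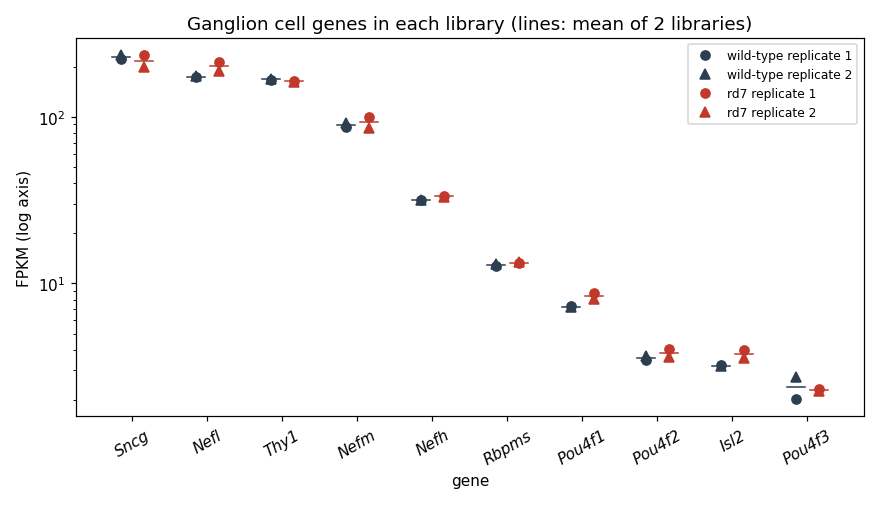
FPKM (log axis) of the 10 ganglion cell genes in each library, ordered by the wild-type mean, with wild-type in dark blue, *rd7* in red, circles for replicate 1, triangles for replicate 2, and a line at the mean of 2 libraries. Levels run from about 2.38 FPKM for *Pou4f3* to 229 FPKM for *Sncg* in wild-type retinas. The gap between genotypes is small beside this range, though not beside every gap between neighbouring genes.

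The ratio of genotype means, *rd7* over wild-type, ran from 0.947 for *Sncg* to 1.18 for *Isl2*. Of the 10 genes, 1 was higher in *rd7*, *Pou4f1*, and 0 were lower by limma at an FDR of 5% (3 higher and 0 lower at an unadjusted p under 0.05), where the shares among all 12655 genes were 37.6% higher and 8.80% lower. The log2 fold changes of the members ran from -0.083 to 0.23 with a median of 0.061, below the median of 0.15 over all genes tested, and 3 of the 10 lay above that median. In 5 members both *rd7* values lay above both wild-type values, compared with 57.1% of all genes, and in 1 both lay below, compared with 19.5%. The median of all genes is itself a matter of scaling. Median-ratio scaling, which brings the middle of all genes to a common level, moved that median to -0.0049 and the members' median to -0.093. *Thy1* was then the single member called, as lower, where 19.6% of all genes were lower and 19.7% higher. For the mutated gene, *Nr2e3*, FPKM was 2493 and 1589 in *rd7* and 385 and 394 in wild-type retinas (log2 fold change 2.35, adjusted p = 0.0011 from limma), and FPKM does not show whether those reads come from a normally spliced transcript.

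**Figure D2:**
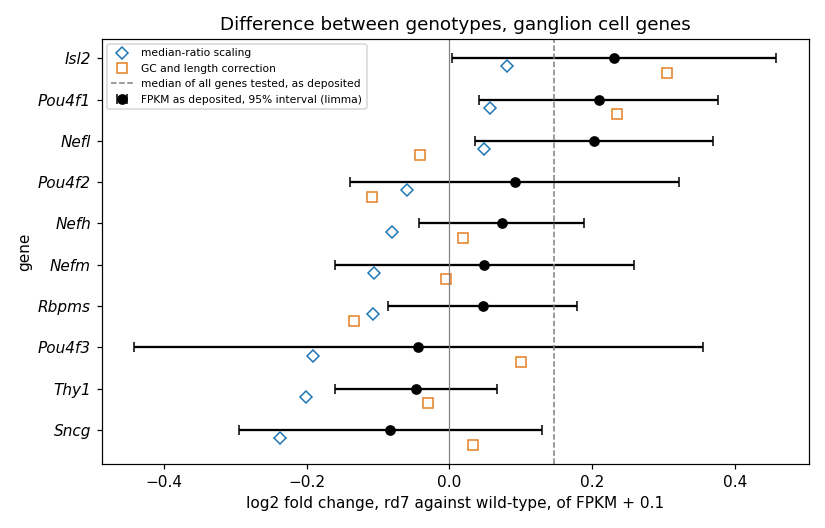
Log2 fold change of FPKM + 0.1, *rd7* against wild-type, for each ganglion cell gene, as black points with 95% intervals from limma, beside the values after median-ratio scaling (open diamonds) and after a correction for GC content and length (open squares). The solid line marks 0 and the dashed line the median of all genes tested, 0.15; the black points run from -0.083 for *Sncg* to 0.23 for *Isl2*.

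The POU4F transcription factors bind DNA through a POU domain. *Pou4f1*, on chromosome 14 of mm9 between 104861541 and 104867216, stood at 8.74 and 8.08 FPKM in *rd7* retinas and at 7.34 and 7.18 FPKM in wild-type retinas. The genotypes did not overlap, and the difference was 1.16-fold (log2 fold change 0.21, standard error 0.068, 95% interval 0.042 to 0.38, adjusted p = 0.0492 from limma). Since all genes tested had a median of 1.11-fold, the excess over that median was 0.062 on the log2 scale. This call sat at the threshold: median-ratio scaling removed it (0.057, limma adjusted p = 0.523), as did quantile normalization, a pseudocount of 1 and the fit with no filter; it was also lost without a variance trend, with a replicate block (adjusted p = 0.0561), and when 1 of *rd7* replicate 1, wild-type replicate 1 or wild-type replicate 2 was left out, and its adjusted p ranged from 0.0129 to 0.731 over all 14 alternatives.

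*Pou4f2*, the family member that acts first in development, lies on chromosome 8 from 80956908 to 80960551. Its FPKM was 4.04 and 3.60 in *rd7* and 3.48 and 3.66 in wild-type retinas. The lower *rd7* value lay between the wild-type values, and the difference was 1.07-fold (95% interval 0.908 to 1.25, adjusted p = 0.452 from limma), turning negative (-0.059) with median-ratio scaling. *Pou4f3*, also required in hair cells of the inner ear, had 2.31 and 2.26 FPKM in *rd7* and 2.02 and 2.75 in wild-type retinas. Both *rd7* values fell within the wild-type range, with a ratio of 0.970 (95% interval 0.736 to 1.28, adjusted p = 0.840 from limma), the widest interval of the 10 genes. Within each library, *Pou4f2* stood at 0.462 and 0.445 of the level of *Pou4f1* in *rd7* and at 0.475 and 0.510 in wild-type retinas, means of 0.454 ± 0.0116 and 0.493 ± 0.0248 (SD, n = 2). The difference in this log2 ratio was -0.12, and -0.34 after the correction for GC content and length. For *Pou4f3* against *Pou4f1* the ratios were 0.265 and 0.279 in *rd7* and 0.275 and 0.384 in wild-type retinas, which overlap.

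*Isl2* encodes a LIM homeodomain factor and lies on chromosome 9 from 55388956 to 55393985, 4.40 Mb from *Nr2e3*. Its FPKM was 3.99 and 3.58 in *rd7* and 3.24 and 3.18 in wild-type retinas. Both *rd7* libraries were higher, by 1.17-fold (95% interval 1.00 to 1.37), with an adjusted p of 0.0877 from limma, which misses the threshold. *Isl2* and *Pou4f1* have transcripts of 60.0% G and C each. After a correction for exonic GC content and transcript length, both were called higher (0.31 and 0.23 on the log2 scale, adjusted p = 0.0445 and 0.0378 from limma), where 12.1% of all genes were. The paralog *Isl1*, which bipolar and amacrine cells also express, was at 42.4 and 32.5 FPKM against 28.4 and 27.0. Its log2 fold change of 0.42 passed the threshold (limma adjusted p = 0.0364), but neither after median-ratio scaling (0.27, adjusted p = 0.134) nor after the GC and length correction (0.16, adjusted p = 0.353).

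*Rbpms* encodes an RNA-binding protein that marks nearly all ganglion cells in the mammalian retina. Its locus on chromosome 8 runs from 34893116 to 35040313. The FPKM was 13.2 and 13.4 in *rd7* and 12.7 and 13.0 in wild-type retinas. The *rd7* values were just above the wild-type values, with a ratio of 1.03 (95% interval 0.942 to 1.13, adjusted p = 0.503 from limma), and the sign turned with median-ratio scaling (-0.11), quantile normalization (-0.12) and the GC and length correction (-0.13). The paralog *Rbpms2*, also found in ganglion cells, had 15.5 and 16.2 FPKM in *rd7* against 17.3 and 17.1 in wild-type. Its log2 fold change of -0.12 (adjusted p = 0.121 from limma) passed the threshold after median-ratio scaling (-0.27, limma adjusted p = 0.0142). The ratio of *Rbpms2* to *Rbpms* was 1.19 ± 0.0252 (SD, n = 2) in *rd7* and 1.34 ± 0.0382 in wild-type retinas, and the genotypes did not overlap. The difference of -0.17 in this log2 ratio shrank to -0.017 after the GC and length correction.

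*Thy1* encodes a cell surface glycoprotein tethered by a lipid anchor, a classical ganglion cell marker that declines early after injury to these cells. It lies on chromosome 9 from 43851467 to 43856662, 15.9 Mb from *Nr2e3*. Its FPKM was 165 and 161 in *rd7* and 167 and 170 in wild-type retinas. Both *rd7* values were the lower, with a ratio of 0.968 (95% interval 0.895 to 1.05, adjusted p = 0.441 from limma). With median-ratio scaling the log2 fold change was -0.20 and passed the threshold (adjusted p = 0.0184 from limma). It did not pass with quantile normalization (-0.13, limma adjusted p = 0.0641) or the GC and length correction (-0.030, limma adjusted p = 0.643). The call for *Thy1* thus depends on the scaling chosen. *Sncg* encodes gamma-synuclein, a small soluble protein of axons and nerve terminals. On chromosome 14 from 35183460 to 35187855, it had 235 and 199 FPKM in *rd7* and 224 and 234 in wild-type retinas. The *rd7* libraries lay on either side of the wild-type libraries, with a ratio of 0.944 (95% interval 0.815 to 1.09, adjusted p = 0.460 from limma). Without *rd7* replicate 1, *Sncg* was called lower (-0.20, adjusted p = 0.00596), and without *rd7* replicate 2 its log2 fold change was 0.038. Its paralog *Sncb*, beta-synuclein, which is not confined to ganglion cells, had 242 and 267 FPKM against 283 and 278 and was not called. It was called lower after median-ratio scaling (-0.30, limma adjusted p = 0.0183). It was not called with quantile normalization (-0.17, limma adjusted p = 0.0819) or the GC and length correction (-0.011, limma adjusted p = 0.921).

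The neurofilament genes encode the light (*Nefl*), medium (*Nefm*) and heavy (*Nefh*) subunits. Horizontal cells of the mouse retina also contain neurofilaments, so these messages are not restricted to ganglion cells. By their deposited loci, *Nefl* and *Nefm* lie 31.8 kb apart on chromosome 14, at 68701941 to 68705794 and 68737602 to 68743061. In the GENCODE vM1 annotation, *Nefm*, on the opposite strand, overlaps the *Nefl* locus, and the kit did not mark strand. Whether this affected their levels was not tested. *Nefh* lies on chromosome 11 at 4838759 to 4848067. *Nefl* had 213 and 189 FPKM in *rd7* and 173 and 175 in wild-type retinas. The genotypes did not overlap, and the ratio was 1.15 (95% interval 1.03 to 1.29, log2 fold change 0.20, adjusted p = 0.0530 from limma), which misses the threshold. Its log2 fold change was 0.048 after median-ratio scaling and -0.041 after the GC and length correction.

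*Nefm*, the neighbour of *Nefl*, had 100.4 and 85.2 FPKM in *rd7* and 87.3 and 91.5 in wild-type retinas. The *rd7* values spanned the wild-type values, with a ratio of 1.03 (95% interval 0.895 to 1.20, adjusted p = 0.660 from limma). *Nefh* had 33.4 and 33.1 FPKM against 31.5 and 31.7. Here the libraries of each genotype were close to each other and apart from the other genotype, but the ratio was only 1.05 (95% interval 0.971 to 1.14, adjusted p = 0.243 from limma) and fell below 1 with median-ratio scaling (-0.081 on the log2 scale). The 3 genes therefore differed by at most 1.15-fold between the genotype means.

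The balance of subunits within a library does not depend on a factor common to the whole library, although it can depend on GC content, which is 48.8% in the transcript of *Nefl*, 57.8% in that of *Nefm* and 58.4% in that of *Nefh*. *Nefm* stood at 0.472 and 0.451 of *Nefl* in *rd7* and at 0.504 and 0.522 in wild-type retinas, means of 0.461 ± 0.0145 and 0.513 ± 0.0130 (SD, n = 2). *Nefh* stood at 0.157 and 0.175 of *Nefl* in *rd7* and at 0.182 and 0.181 in wild-type retinas. As deposited, both ratios were lower in each *rd7* library than in each wild-type library, by -0.15 and -0.13 on the log2 scale, but their direction turned after the GC and length correction (0.036 and 0.060). For *Nefh*, the *rd7* libraries differed more from each other than *rd7* replicate 2 did from wild-type. As shares of the 3 subunits together, *Nefl* made up 61.4% and 61.5% in *rd7* and 59.3% and 58.7% in wild-type retinas. With 2 libraries in each genotype, the smallest two-sided p of an exact permutation test is 1 in 3, and the ratios are given as values with no test. *Ina*, which encodes alpha-internexin, a further partner in the neurofilaments of mature central neurons, had 42.9 and 43.3 FPKM in *rd7* and 33.0 and 34.0 in wild-type retinas. It was higher by 1.28-fold (log2 fold change 0.36, adjusted p = 0.00325 from limma), also after median-ratio scaling (0.21) and the GC and length correction (0.28). Its ratio to *Nefl* was 0.202 and 0.229 in *rd7* against 0.191 and 0.194, a difference of 0.16 in the log2 ratio that was 0.32 after the GC and length correction. *Prph*, which encodes peripherin, had 5.04 and 4.46 FPKM against 4.19 and 3.80 and was not called (log2 fold change 0.24, adjusted p = 0.0882 from limma), but it passed the threshold after the GC and length correction (0.33, adjusted p = 0.0403).

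**Figure D3:**
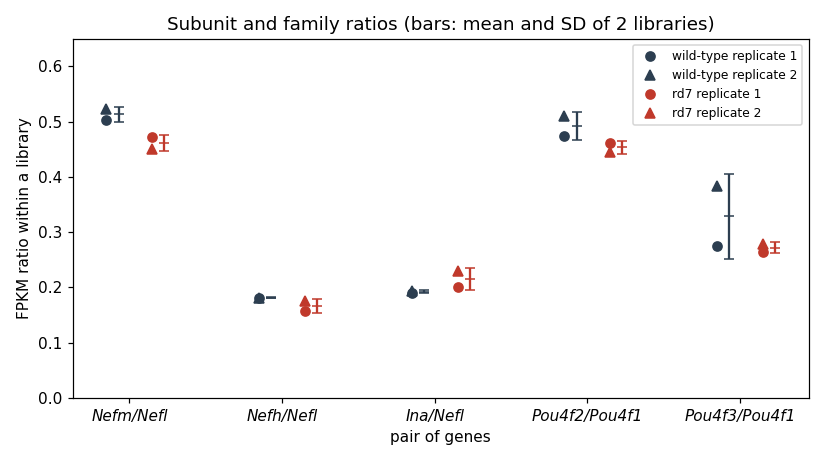
FPKM of 1 gene divided by that of another within each library, for the neurofilament subunits against *Nefl* and the POU4F genes against *Pou4f1*, with wild-type in dark blue, *rd7* in red, and bars for the mean and SD of 2 libraries. *Nefm*/*Nefl* lies at 0.451 and 0.472 in *rd7* and at 0.504 and 0.522 in wild-type retinas, and *Pou4f3*/*Pou4f1* overlaps between genotypes.

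Values of the members also differed between replicate libraries of the same genotype. Of the 10 members, 9 had a higher FPKM in *rd7* replicate 1 than in *rd7* replicate 2, with *Rbpms* as the exception. In the wild-type pair, 2 had a higher FPKM in replicate 1 than in replicate 2. The share of all genes with replicate 1 above replicate 2 was not counted, so these counts do not set the members apart from other genes. The median size of the log2 difference between the *rd7* libraries was 0.13 over the members and 0.095 over all genes tested, while between the wild-type libraries it was 0.035 and 0.059. The widest gap of any member was nevertheless in the wild-type pair, 0.43 for *Pou4f3*, against 0.24 at most in the *rd7* pair. Without *rd7* replicate 2, 4 members were called higher (*Isl2*, *Pou4f1*, *Nefl* and *Nefm*), where 43.3% of all genes were. Without *rd7* replicate 1, *Nefl* was called higher and *Sncg* lower, where 41% of all genes were higher and 12.7% lower. These fits leave 1 *rd7* library, which is assumed to vary like the wild-type pair.

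Another 87 symbols of ganglion cell biology in 5 lists gave the wider view, of which 83 are listed and 68 were tested. At an FDR of 5%, 24 were higher and 3 lower, with a median log2 fold change of 0.18. These shares are at or below those of all genes, 37.6% higher and 8.8% lower with a median of 0.15, and the counts of each list below are to be read against them. With median-ratio scaling 14 were higher and 13 lower with a median of 0.031, while the GC and length correction left 8 and 6, where 12.1% of all genes were higher and 14.4% lower. Among the other transcription factors of ganglion cells, 5 of 16 tested were higher and 1 was lower, with a median of 0.11. Median-ratio scaling left 1 higher and 1 lower with a median of -0.034, and the GC and length correction 2 lower with a median of -0.030. Beside *Isl1*, the larger rises were those of *Myt1* (19.0 and 17.0 FPKM against 13.4 and 13.4, log2 fold change 0.42) and *Ebf1*, an early B-cell factor family gene (6.86 and 7.38 against 5.37 and 5.72, 0.36). The call of *Ebf1* was lost after median-ratio scaling and after the GC and length correction, and that of *Myt1* with the GC and length correction.

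Among other genes used as general ganglion cell markers, 9 of 19 tested were higher and 0 lower (12 and 0 at an unadjusted p under 0.05), with a median of 0.26. The balance was 4 higher and 4 lower after median-ratio scaling, and 1 and 1 after the GC and length correction. *Slc17a6*, which encodes the vesicular glutamate transporter VGLUT2 that loads the transmitter of ganglion cells and also of some cones, had 22.0 and 21.0 FPKM in *rd7* against 15.6 and 17.1 in wild-type (log2 fold change 0.40, adjusted p = 0.00587 from limma). It passed the threshold with median-ratio scaling (0.24) and not with the GC and length correction (0.031, adjusted p = 0.718). Relative to *Rbpms* in the same library, *Slc17a6* stood at 1.67 and 1.57 in *rd7* and 1.23 and 1.31 in wild-type retinas, a difference of 0.35 in the log2 ratio that was 0.16 after the GC and length correction. The 3 larger rises of the list were those of *Chrna3*, a nicotinic acetylcholine receptor subunit (4.21 and 3.53 FPKM against 2.19 and 2.52, log2 fold change 0.69), *Ntng1*, netrin-G1 (11.8 and 12.9 against 8.27 and 8.59, 0.55), and *Elavl2*, a neuronal RNA-binding protein (8.45 and 8.26 against 6.24 and 6.00, 0.44). All 3 were called with median-ratio scaling, and of these *Chrna3* also with the GC and length correction (0.43, adjusted p = 0.0456 from limma).

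Genes that mark subtypes of ganglion cells were called higher in 5 of 13 tested, and 0 were lower (5 and 0 at an unadjusted p under 0.05), with a median of 0.13. Median-ratio scaling gave 5 higher and 2 lower, and the GC and length correction 2 higher. *Opn4*, which encodes melanopsin, the photopigment of the intrinsically photosensitive ganglion cells, had 3.25 and 2.52 FPKM in *rd7* and 2.44 and 2.80 in wild-type retinas, which overlap (log2 fold change 0.13, adjusted p = 0.517 from limma). The 3 larger rises were those of *Cdh6*, a cadherin of direction-selective cells, *Igf1*, a growth factor, and *Kcng4*, a potassium channel subunit of alpha ganglion cells. *Cdh6* had 3.03 and 2.95 FPKM against 1.42 and 1.60 (log2 fold change 0.95, adjusted p = 0.00266 from limma) and was called in both the median-ratio (0.80) and the GC and length (0.79) fits. *Kcng4* had 9.61 and 12.4 FPKM against 6.06 and 6.65 (0.77) and *Igf1* 7.60 and 6.01 against 3.77 and 3.91 (0.80), of which *Igf1* was not called with the GC and length correction (0.33, adjusted p = 0.0859 from limma). In which cells these 3 genes were higher was not measured in whole retina. *Hoxd10* was listed at 0 in all 4 libraries.

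Of the genes of the axonal cytoskeleton and of intermediate filaments, 3 of 12 tested were higher and 1 lower, and the balance turned to 2 higher and 4 lower after median-ratio scaling. The GC and length correction gave 3 higher and 2 lower. Beside *Ina*, *Vim*, the filament of Müller glia and astrocytes rather than of ganglion cells, was higher (72.8 and 88.0 FPKM against 55.6 and 56.6, log2 fold change 0.51). *Mapt*, the axonal microtubule protein tau, was higher by 0.18, a call lost with median-ratio scaling (0.027). *Dpysl2*, which encodes the axon growth protein CRMP2, fell from 75.7 and 79.1 to 63.1 and 65.5 FPKM (log2 fold change -0.27, adjusted p = 0.00917 from limma), also with median-ratio scaling (-0.42) and the GC and length correction (-0.56). Genes induced in injured ganglion cells were higher in 2 of 8 tested and lower in 1, with a median of 0.26. Median-ratio scaling gave 2 higher and 2 lower with a median of 0.11, and the GC and length correction 2 higher and 1 lower. *Cdkn1a*, the cell cycle inhibitor p21, was higher (9.04 and 7.13 FPKM against 3.91 and 4.49, log2 fold change 0.92), as was *Jun*, a transcription factor of the axon injury response (15.5 and 16.9 against 12.5 and 12.4, 0.37). *Gadd45a*, a stress gene, was lower (25.3 and 22.1 against 32.1 and 33.9, -0.48). All 3 calls held with median-ratio scaling and the GC and length correction. In which cells *Cdkn1a*, *Jun* and *Gadd45a* differed was not measured in whole retina. *Sprr1a*, a gene that is silent in intact ganglion cells, was listed at 0 in all 4 libraries.

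**Figure D4:**
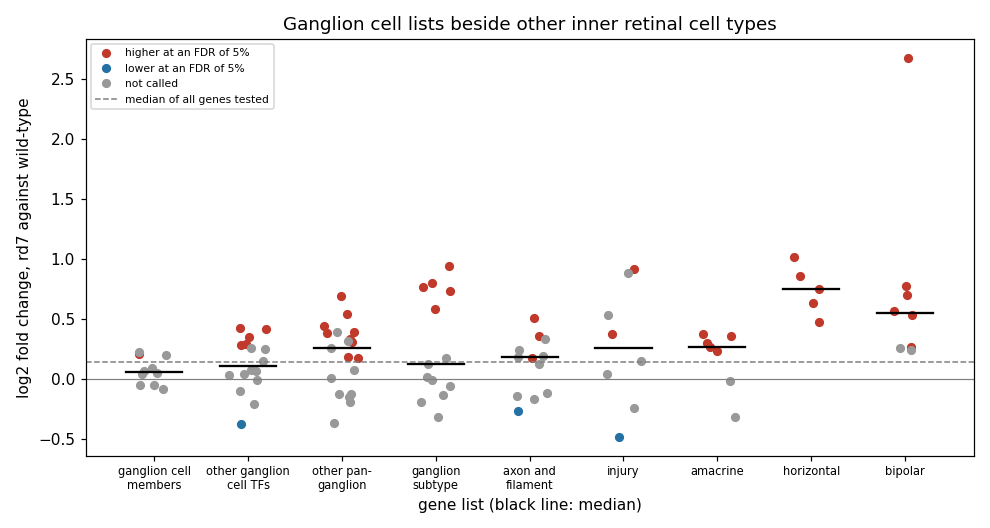
Log2 fold change, *rd7* against wild-type, of each tested gene in the ganglion cell lists and in marker lists of amacrine, horizontal and bipolar cells, coloured by the limma call at an FDR of 5%, with a black line at the median of each list and a dashed line at the median of all genes tested, 0.15. The medians are 0.061 for the 10 members, 0.26 for the other general ganglion cell markers, 0.27 for amacrine, 0.75 for horizontal and 0.55 for bipolar cells.

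As deposited and after median-ratio scaling, the marker lists of the other inner retinal neurons had higher medians than the 10 ganglion cell genes. After the GC and length correction this held for the horizontal (0.61) and bipolar (0.46) lists but not for the amacrine list (0.0035, beside 0.0070 for the 10 genes). As deposited, the other ganglion cell lists also had higher medians than the 10 genes. That of the other general ganglion cell markers was 0.26, and 0.11 after median-ratio scaling, close to the amacrine list. Some amacrine cells share the ganglion cell layer. The amacrine list, which is not limited to those cells, had 5 of 7 tested genes higher with a median log2 fold change of 0.27. Median-ratio scaling left 0 higher and 1 lower with a median of 0.11. After the GC and length correction 1 of 7 was higher. The horizontal cell list had 5 of 5 higher with a median of 0.75 (4 of 5 and 0.60 after median-ratio scaling), and the bipolar list 6 of 8 higher with a median of 0.55 (5 of 8 and 0.40). The summed FPKM of the horizontal list was 63.5 and 63.7 in *rd7* and 38.8 and 39.6 in wild-type libraries, beside the 10 ganglion cell genes with 779 and 698 against 712 and 732. The difference between lists was not tested. Markers of myelinating cells, which reach the eye at the optic nerve head, were low: the oligodendrocyte list had 3 of 8 genes above the filter, 2 of them higher, with summed FPKM of 22.4 and 22.4 against 16.1 and 16.3 and *Olig1* at 0. The astrocyte list, cells that follow ganglion cell axons, summed to 20.4 and 37.2 FPKM in *rd7* and 16.1 and 17.7 in wild-type libraries, with 1 of 3 tested genes higher. Müller cell markers were higher in 4 of 8 and endothelial markers in 1 of 4. The part of these cells in the values of *Nefl*, *Ina*, *Vim* and *Slc17a6* was not tested. Photoreceptor markers were abundant in all libraries.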

How the data were processed

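Retinas were pooled into 2 *rd7* and 2 wild-type libraries. The authors sequenced single reads of 50 bases on 1 lane, aligned them to mm9 with TopHat 1.4.1 and deposited FPKM per gene and library from Cufflinks 1.3.0; tool versions are from the submitters' processing notes. Read counts were not used here, so no count model was fitted. A second deposited file holds the authors' Cuffdiff comparison and was not used. The kit did not mark strand. The 262 loci with an unsuccessful estimate in any library were left out. The filter kept 12655 genes averaging 1 FPKM or more. Differences in log2(FPKM + 0.1) were fitted by limma 3.58.1 (R 4.3.3), with the prior variance following the mean level, two-sided tests and Benjamini-Hochberg adjustment over the genes kept (FDR of 5%), a step tested on simulated data. Fold changes on this scale understate those of low genes. GC content and length came from the longest coding transcript in GENCODE vM1 of the same build (94.7% of genes tested).

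The members and lists were chosen with earlier results of these data known. Named are all members, their listed partners, and up to 3 rises and 3 falls at the FDR per list. *Map1b*, *Map2*, *Sptbn4*, *Sprr2a1*, *Tfap2a* and *Tfap2b* were not analysed here, and some genes that the rule names are not reported here. Tested as marker lists too were rod (3 of 7 lower), cone (6 of 8 higher), pigment epithelium (3 of 4 higher), lens (2 tested, not called), blood (3 of 4 rows lower) and microglia (1 of 3 higher) genes. Reads per library were estimated from FPKM times kb between 0.02 and 0.036 in genes with 1 coding transcript over 800 bases, using annotated lengths. Alternatives were pseudocounts of 1 and 0.01, no filter, a stricter filter (mean FPKM 5), scaling by median ratios, quantile normalization, no variance trend, a replicate block, a GC and length correction (natural splines), an FDR of 1% and each library left out. Statistics and figures used Python 3.11.15 and matplotlib 3.10.9.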

Additional observations from a re-analysis of the deposited data

How the results depend on the processing

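Of 137 refits of single members, 102 kept the direction and the side of the threshold, 17 turned the sign, 8 passed the threshold and 10 lost it; no member's call was reversed in sign, and the cause was not tested. The count of members higher, 1 without changes, was 0 with a pseudocount of 1, without a filter, with median-ratio scaling, quantile normalization, no variance trend, a replicate block or an FDR of 1%, and 2 with a mean FPKM of at least 5 or the GC and length correction. Leaving out 1 library gave 0 to 4. The count of members lower, 0 without changes, was 1 with median-ratio scaling and 0 to 1 on leaving out 1 library. Signs turned with median-ratio scaling for *Pou4f2* (-0.059), *Rbpms* (-0.11), *Nefm* (-0.11), *Nefh* (-0.081) and *Opn4* (-0.023). They turned with quantile normalization for *Pou4f2* (-0.11), *Rbpms* (-0.12), *Nefm* (-0.039), *Nefh* (-0.059) and *Opn4* (-0.081). They turned with the GC and length correction for *Pou4f2* (-0.11), *Pou4f3* (0.10), *Rbpms* (-0.13), *Sncg* (0.033), *Nefl* (-0.041), *Nefm* (-0.0050), *Ebf1* (-0.036) and *Mapt* (-0.022). On leaving out 1 library, *Pou4f3* ran from -0.26 to 0.17, *Sncg* from -0.20 to 0.038, *Nefm* from -0.069 to 0.17 and *Opn4* from -0.053 to 0.30. Replicate numbers gave no pairing of libraries (correlation across genes of the deviations of those numbered 1, r = -0.027). With the block, 25 genes of the 5 other lists were higher and 2 lower, and 4508 and 1091 of all genes; among the calls it removed was that of *Pou4f1* (adjusted p = 0.0561 from limma).

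In the 5 other lists, the 24 genes higher and 3 lower became 7 and 0 without a filter, 14 and 13 by median ratios, 15 and 11 by quantiles and 8 and 6 after the GC and length correction. Leaving out 1 library gave 4 to 32 and 0 to 9, lowest without wild-type replicate 1 (higher) and wild-type replicate 2 (lower). Over all genes tested, 4755 higher and 1114 lower became 2249 and 455 without a filter, 2492 and 2479 by median ratios, 2350 and 2404 by quantiles, 1455 and 1723 after the GC and length correction, and 2582 and 446 at an FDR of 1%. Leaving out 1 library gave 1293 to 5484 and 224 to 1601, lowest without wild-type replicate 1. The wild-type ratio of *Nefh* to *Nefl* was 0.181 and, from log2(FPKM + 0.1), 0.182. Depth limits *Pou4f3* most, at 82 to 113 estimated reads per value.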

Other observations

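Among genes of acute stress, looked at after values were seen, the *rd7* libraries differed from each other in *Atf3*, *Egr1* and *Junb*, and not in the same direction. *Atf3*, a transcription factor induced in injured ganglion cells and in many other stressed cells, had 1.91 and 5.20 FPKM in *rd7* replicates 1 and 2 and 1.82 and 1.53 in the wild-type libraries, and it was not called (log2 fold change 0.88, adjusted p = 0.143 from limma). *Egr1*, an immediate early gene of active neurons, had 20.5 and 10.8 FPKM in *rd7* replicates 1 and 2 and 7.82 and 7.24 in the wild-type libraries. It was called higher (log2 fold change 0.98, adjusted p = 0.0327 from limma), but not after median-ratio scaling (adjusted p = 0.0616 from limma). *Junb* had 4.52 and 8.16 against 6.23 and 5.99 FPKM and was not called. *Fos*, another immediate early gene, had 9.86 and 8.37 against 11.1 and 10.6 FPKM, lower in both *rd7* libraries. It was not called as deposited (log2 fold change -0.25, adjusted p = 0.0661 from limma). It was called lower with median-ratio scaling (-0.40), quantile normalization (-0.41) and the GC and length correction (-0.36). *Hspa1a* (13.8 and 17.9 against 20.7 and 20.6 FPKM) and *Hspa1b* (12.3 and 14.4 against 17.8 and 16.8) were called lower by limma at an FDR of 5%. The call of *Hspa1a* was lost with the GC and length correction. *Fosb* lay below the filter.

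On chromosome 9, *Chrna3* lies 4.92 Mb from *Nr2e3*, *Isl2* 4.40 Mb and *Rbpms2* 5.68 Mb. Their log2 fold changes were 0.69, 0.23 and -0.12, of which that of *Chrna3* was called by limma at an FDR of 5% and the others were not.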
